A study of Mus musculus with 6 samples.

Results

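Germ cells control many of their mRNAs after transcription, through RNA-binding proteins that attach to the 3′ untranslated region and change how long the poly(A) tail is, how stable the mRNA is or how much protein it gives. Described here are 7 mouse genes of such proteins: Dazl, Nanos2, Nanos3, Dnd1, Pum2, Elavl2 and Tial1. They were chosen by symbol, as members or partners of the DAZL, NANOS, DND1 and PUMILIO families in germ cells, and all 7 were found among the 22579 genes of the count table. DAZL promotes translation together with poly(A)-binding protein, whereas NANOS and DND1 proteins bring target mRNAs to the CCR4-NOT complex, which shortens the tail. PUMILIO proteins bind a short element in the 3′ untranslated region and cooperate with NANOS, and the ELAVL and TIA proteins bind stretches rich in A and U or in U.

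RNA was measured in 6 libraries of THY1-positive spermatogonia at day 4, each from about 1000 cells, made with SMART-seq2, an amplification of whole cDNA from few cells. Of these, 3 were controls and 3 came from mice with a Ddx20 knockout, and the controls were littermates. Sorting or enriching by the surface protein THY1 favours the undifferentiated spermatogonia, and DDX20 is an RNA helicase of the SMN complex, which assembles the small nuclear ribonucleoproteins of splicing. The labels also write cKO for the knockout. The strain, any Cre driver, the deleted exons, how many animals gave each library and which littermates belong together do not appear in the labels, and the spread that p-values measure here is that between libraries, which may be technical. The comparison asks how these regulators differ when Ddx20 is lost.

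Ddx20 had 668, 383 and 531 reads in controls 1, 2 and 3, against 128, 168 and 119 in knockouts 1, 2 and 3, and was called lower (edgeR adjusted p 0.0118). Total counts ran from 8428871 to 12497967 per library. Knockout 1 and knockout 2 formed the closest pair, with a mean chi-square per gene of 1.78 where sampling noise gives 1, and a mean of 11.96 or more in each of the other 14 pairs. Results are therefore also given with these libraries counted as 1. The germ cell markers Ddx4, Mael, Tdrd1, Tex101, Mov10l1 and Rnf17 were present in every library and summed to 1257 to 1861 CPM (CPM being read counts scaled to a common library size) in controls and 2237 to 2407 in knockouts. They did not move as 1 set, since 4 had a log2 fold change above 0 and 2 below. Mael was called higher (log2 fold change 0.79, edgeR adjusted p 0.0475), from a mean of 557 to 962 CPM. Tdrd1 was lower in each knockout than in each control, without a call (−0.57, adjusted p 0.0681). Thy1 and 11 other markers of undifferentiated spermatogonia were also present, at a sum of 759 to 879 CPM in controls and 523 to 557 in knockouts. By edgeR 4 of the 12 were called lower and 1 higher, beside 2.8% and 2.03% of all tested genes. The 6 markers of differentiating spermatogonia summed to 233 to 275 CPM in controls and 174 to 193 in knockouts. Of these, Kit (log2 fold change −1.02, edgeR adjusted p 0.0269) and Stra8 were called lower, 0 were called higher and 4 were not called. Of 37 markers of 7 somatic and blood cell types all had reads in some library, and 8 of the 35 tested were called higher and 0 lower by edgeR, against 2.03% of all tested genes called higher. The 8 include Cldn11 and Actg2, which had at most 6 and 19 reads in any control and passed the filter through the knockouts, so that they had to differ. All 37 markers together summed to 1227 to 1940 CPM in controls and 2852 to 3546 in knockouts. Lyz2, which was not called, and Dcn, which was called higher, were large parts of that sum. Their means were 657 and 291 CPM in controls and 1384 and 655 in knockouts. Of the 7 Sertoli cell markers, Clu (log2 fold change 1.56, edgeR adjusted p 0.0101) and Cldn11 (3.34, 0.0341) were called higher, Sox9, Wt1, Gata4 and Aard had 15 to 139 reads per library without a call, and Amh had at most 2. Mitochondrially encoded transcripts took 14.0% to 16.9% of reads in controls and 19.8% to 20.1% in knockouts. The part of these differences in the values below was not tested. In bulk libraries fewer cells of a type and less RNA per cell cannot be told apart.

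Of the 7 genes, Tial1 fell in the knockouts and the other 6 did not pass the test. Calls are edgeR results with a p under 0.05 after Benjamini-Hochberg adjustment over 14766 tested genes, of which 4.83% were called and 2.8% were called lower. All 7 passed the filter on low counts, Nanos2 through its control libraries alone, so that it had to differ to be tested. The log2 fold change of knockout over control was below 0 in 6 of the 7, against 49.7% of all tested genes, and above 0 in Dazl. The knockout and control libraries did not overlap, with the knockouts lower, in 5 of the 7: Nanos2, Nanos3, Pum2, Elavl2 and Tial1. That held for 15.8% of all tested genes. The same 5 had an unadjusted edgeR p under 0.05, against 12.8% of genes that were lower at that level. The genes were chosen with earlier results of these libraries known, so these shares are a description. Treating the closest knockout pair as 1 library, edgeR called 0 of the 7 and 0% of all tested genes lower, so that its count says nothing of these genes. DESeq2 and limma-voom each called 1 there, which was Tial1, and called 1.68% and 1.62% of all tested genes lower.

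**Figure D1:**
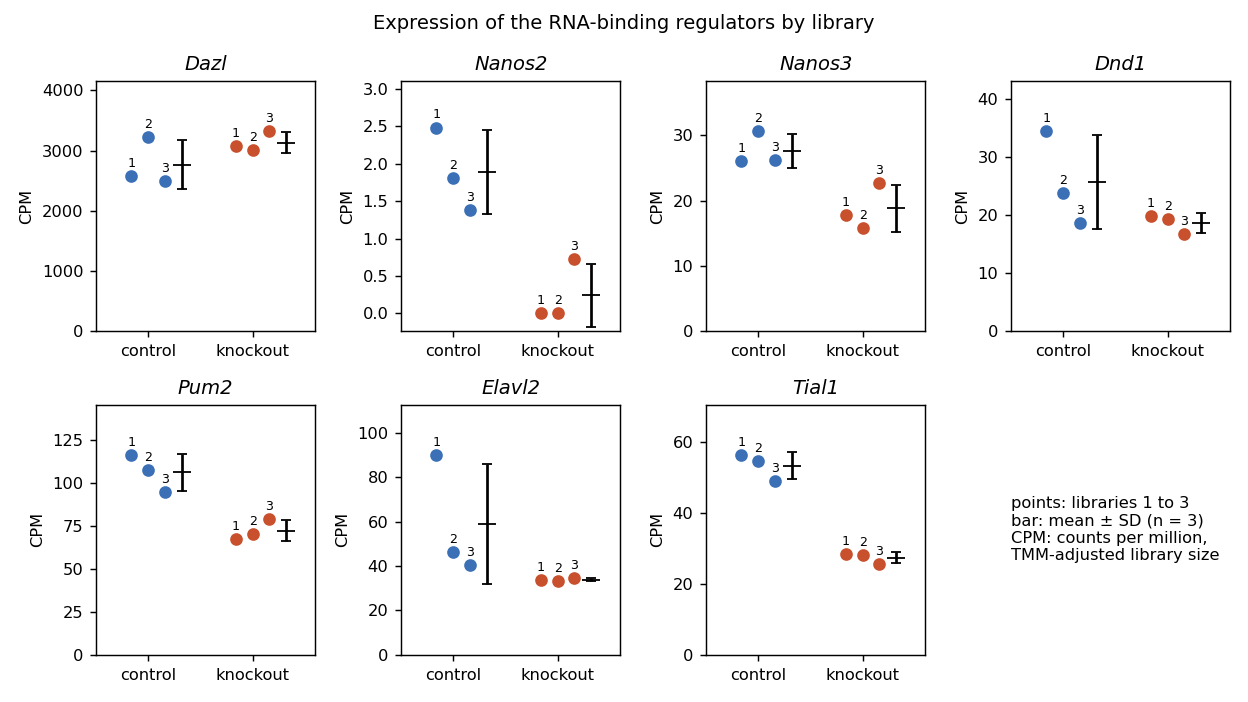
Expression of the 7 genes in each library, in CPM on a linear axis. Points are single libraries with their replicate number, and bars give the mean ± SD of 3. Knockout points lie below every control point for Nanos2, Nanos3, Pum2, Elavl2 and Tial1, while the groups overlap for Dazl and Dnd1.

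Dazl encodes a germ cell protein that binds U-rich sequences containing GUU and recruits poly(A)-binding protein. The gene (ENSMUSG00000010592) is on the minus strand of chromosome 17, from 50279395 to 50293636 (mm10, as for all positions here). Per kilobase of exon Dazl was the most abundant of the 7 in every library, and it had 26922, 34004 and 32627 reads in controls 1 to 3 and 33021, 33104 and 36910 in knockouts 1 to 3. Its share of all reads was 0.274% to 0.319% in controls and 0.278% to 0.295% in knockouts, and it ranked between place 20 and place 31 of all genes in each library.

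After scaling, Dazl stood at 2572, 3228 and 2501 CPM in controls 1, 2 and 3, against 3069.6, 3003 and 3323 CPM in knockouts 1, 2 and 3. Control 2 lay among the knockout libraries, so that the groups overlapped. The means were 2767 ± 401 and 3132 ± 169 CPM (SD, n = 3 per group). Its log2 fold change was 0.18 ± 0.21 (SE, edgeR adjusted p 0.645), and −0.074 with scaling by library size alone, which moved the median of all genes from 0.01 to −0.26. A difference of this size was not detectable against the spread between these libraries.

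Nanos2 encodes the repressor that keeps male germ cells out of meiosis and holds spermatogonial stem cells in an undifferentiated state. The gene (ENSMUSG00000051965) is on the plus strand of chromosome 7, from 18987400 to 18988962, and its exons overlap the predicted gene Gm45058 on the other strand. Nanos2 was rare in these libraries. It had 26, 19 and 18 reads in controls 1 to 3 and 0, 0 and 8 in knockouts 1 to 3. Every control library was above every knockout library, and the 8 reads of the knockout group all came from knockout 3.

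Relative to total counts, without TMM scaling, these were 3.08, 1.72 and 1.51 CPM in the controls and 0.640 CPM in knockout 3. In knockout 1 and 2, 0 reads allow up to 0.257 and 0.252 CPM at the floor of 3 counts. Over the groups, 63 control and 8 knockout reads give a level 9.06-fold lower in the knockouts, and counting error alone gives an exact 95% interval from 4.33 to 21.9. PCR copies are counted as reads here, since SMART-seq2 adds no molecular identifiers, so the reads are not independent molecules. Against the spread between libraries the log2 fold change was −2.91 ± 1.28 (SE, edgeR adjusted p 0.194). Without knockout 3 the remaining knockout reads are 0, and the fitted value of −7.41 (adjusted p 0.0819) then depends on the prior count and is no bound.

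Nanos3 encodes the paralog that protects migrating germ cells from death and is also present in spermatogonia. The gene (ENSMUSG00000056155) is on the minus strand of chromosome 8, from 84173731 to 84185217. It stood at 26.1, 30.7 and 26.2 CPM in controls 1, 2 and 3, against 17.8, 15.8 and 22.8 CPM in knockouts 1, 2 and 3, from 174 to 342 reads per library. The groups did not overlap, and knockout 3 was again the highest of the knockouts. Means were 27.7 ± 2.61 and 18.8 ± 3.59 CPM (SD, n = 3 per group). The log2 fold change of −0.56 ± 0.22 (SE) did not pass (edgeR adjusted p 0.151, unadjusted 0.0265).

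Nanos1, the third gene of the family, known from brain and testis, had a log2 fold change of −0.98 ± 0.32 (SE, edgeR adjusted p 0.0956). It stood at 26.0, 12.4 and 15.1 CPM in controls 1 to 3 and 10.04, 9.16 and 7.83 CPM in knockouts 1 to 3. The knockouts were lower than each control, and control 1 was higher than the rest. Thus none of the knockout libraries reached the lowest control for any of the 3 NANOS genes, as for 15.8% of all tested genes, and Nanos2 passed the filter only through its controls. By edgeR 0 of the 3 were called, and all 3 had an unadjusted p under 0.05, against 12.8% of all tested genes that were lower at that level.

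Promoter sequence is shown for Nanos2, the gene with the fewest reads, and for Tial1, the gene that was called, because the regions before their start sites differ in base composition. The sequences are from RefSeq on GRCm38.p6, the assembly of mm10. Promoters of 6 of the 7 genes were described, and Dnd1 was left out. Each line gives the bases of the 250 before the RefSeq start that also lie before the gene start of the GENCODE annotation, 5′ to 3′ on the strand of the gene, with CpG dinucleotides in capitals.
Nanos2, chr7:18987274-18987399, plus strand: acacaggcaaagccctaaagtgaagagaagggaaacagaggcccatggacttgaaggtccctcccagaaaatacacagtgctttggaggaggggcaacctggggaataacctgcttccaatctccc
Tial1, chr7:128461718-128461923, minus strand: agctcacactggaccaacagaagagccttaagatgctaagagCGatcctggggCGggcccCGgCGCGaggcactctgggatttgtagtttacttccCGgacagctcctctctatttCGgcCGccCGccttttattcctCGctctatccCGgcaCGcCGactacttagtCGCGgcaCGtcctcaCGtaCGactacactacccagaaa
The Nanos2 stretch holds 0 CpG in 126 bases and the Tial1 stretch 18 in 206. Over the full 250 bases before the start, Nanos2 had 0 CpG, as had 7.87% of 32851 RefSeq promoters, whose median was 6. Nanos3 had 3, Dazl 20, and the first listed starts of Tial1, Pum2 and Elavl2 had 22, 34 and 10. No methylation was measured, and the counts of CpG are a description of sequence only.

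Dnd1 encodes the vertebrate dead end protein, a partner of NANOS2 in binding target mRNAs and bringing in CCR4-NOT. The gene (ENSMUSG00000044595) is on the minus strand of chromosome 18, from 36763671 to 36766214, and its exons overlap Wdr55 on the other strand. Dnd1 stood at 34.5, 23.8 and 18.6 CPM in controls 1, 2 and 3, against 19.9, 19.3 and 16.7 CPM in knockouts 1, 2 and 3. Control 3 lay below knockout 1 and 2, so that the groups overlapped, and control 1 was the highest library. Dnd1 had a log2 fold change of −0.46 ± 0.25 (SE, edgeR adjusted p 0.304), and −0.19 without control 1. Wdr55, whose reads cannot be told apart from those of Dnd1 where exons overlap without a strand setting, had a log2 fold change of −0.67 with an edgeR adjusted p of 0.0707.

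Pum2 encodes a PUMILIO protein, a repressor that binds a short element that starts with UGUA in mRNA. The gene (ENSMUSG00000020594) is on the plus strand of chromosome 12, from 8674134 to 8752581. Pum2 stood at 116, 107 and 94.8 CPM in controls 1 to 3 and 67.3, 70.3 and 79.2 CPM in knockouts 1 to 3, from 724 to 1237 reads per library. The groups did not overlap. Means were 106 ± 10.8 and 72.3 ± 6.20 CPM (SD, n = 3 per group), which is 31.9% lower.

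The log2 fold change of Pum2, −0.55 ± 0.15 (SE), was just outside the threshold, at an edgeR adjusted p of 0.0609 (unadjusted 0.00376). DESeq2 and limma-voom, here always with sample quality weights, called it (adjusted p 0.0222 and 0.00303), as did edgeR with library size scaling (log2 fold change −0.83, adjusted p 0.0259) and without control 3 (adjusted p 0.0485). In that order these settings called 11.1%, 19.5%, 9.33% and 5.27% of all tested genes, against 4.83% in the main test. None of the 3 tools called Pum2 once the closest knockout pair was taken as 1 library, with adjusted p values of 0.298 by edgeR, 0.184 by DESeq2 and 0.141 by limma-voom.

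Elavl2 encodes an ELAV-like protein (HuB) that binds AU-rich mRNA and is known from neurons and germ cells. The gene (ENSMUSG00000008489) is on the minus strand of chromosome 4, from 91250763 to 91400785. Elavl2 stood at 90.1, 46.5 and 40.6 CPM in controls 1, 2 and 3, against 33.6, 33.5 and 34.7 CPM in knockouts 1, 2 and 3. The knockouts were nearly alike, while control 1 was far above control 2 and 3, which lay closer to the knockouts. Its log2 fold change was −0.80 ± 0.27 (SE, edgeR adjusted p 0.110), and −0.36 with an adjusted p of 0.176 without control 1. Control 1 thus moved the fold change by more than any other library did.

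Of the paralogs of Elavl2, Elavl1 had a fold change on the same side of 0 and Elavl4 on the other. Elavl1, which encodes the widely expressed protein HuR, averaged 91.2 ± 9.50 CPM (controls) and 76.5 ± 16.7 CPM (knockouts; SD, n = 3 per group, edgeR adjusted p 0.433). Elavl4, known from neurons, had 15, 22 and 16 reads in controls 1 to 3 and 49, 55 and 32 in knockouts 1 to 3, a log2 fold change of 1.39 ± 0.54 (SE) that did not pass (edgeR adjusted p 0.149). Elavl3 had at most 9 reads in any library and was not tested.

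Tial1 encodes TIAR, a protein that binds U-rich mRNA, represses translation, enters stress granules and is required for germ cell development. The gene (ENSMUSG00000030846) is on the minus strand of chromosome 7, from 128439777 to 128461717. Tial1 had 590, 575 and 640 reads in controls 1, 2 and 3, against 306, 310 and 285 in knockouts 1, 2 and 3. After scaling this was 56.4, 54.6 and 49.1 CPM against 28.4, 28.1 and 25.7 CPM. The groups lay well apart, with little spread within each.

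Mean Tial1 fell to 27.4 ± 1.53 CPM in knockouts, from 53.3 ± 3.81 CPM in controls (SD, 3 libraries each), which is 48.6% lower. The log2 fold change was −0.96 ± 0.17 (SE, edgeR adjusted p 0.0192). Counting knockout 1 and 2 as 1 library left the log2 fold change at −0.98 but gave an edgeR adjusted p of 0.126, against 0.0121 by DESeq2 and 0.0156 by limma-voom. The edgeR call was also lost without control 2 (adjusted p 0.0513) and without knockout 1, 2 or 3 (0.121, 0.124 and 0.0712), where the log2 fold change ran from −0.98 to −0.92. In those settings edgeR called 182, 5, 10 and 3 genes of all those tested. Tia1, the paralog, stood at 7.64, 20.2 and 23.0 CPM in controls 1 to 3 and 18.6, 18.4 and 13.7 CPM in knockouts 1 to 3. Control 1 was the lowest library for Tia1, and its log2 fold change was −0.01 ± 0.36 (SE, edgeR adjusted p 0.993).

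**Figure D2:**
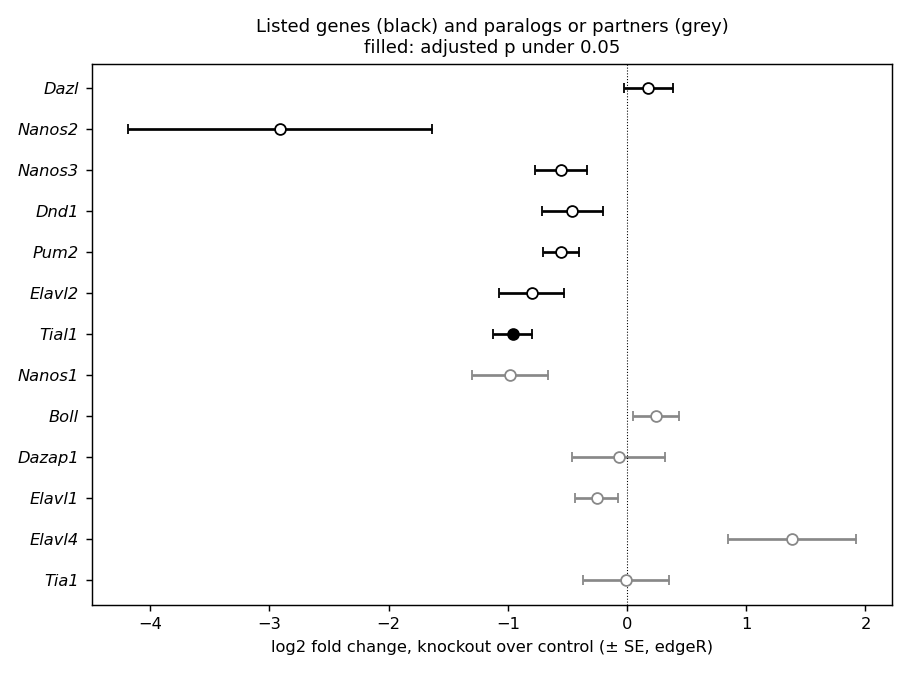
Log2 fold change of knockout over control (± SE, edgeR) for the 7 genes in black and for their tested paralogs and partners in grey. The filled point marks Tial1, the gene with an adjusted p under 0.05, and the widest interval belongs to Nanos2, at −2.91 ± 1.28.

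Among the DAZ relatives, Boll, the ancestral paralog known from meiotic and later germ cells, averaged 32.3 ± 3.80 CPM (controls) and 38.3 ± 5.96 CPM (knockouts; SD, n = 3 per group, edgeR adjusted p 0.480). Dazap1, which encodes a DAZ-associated RNA-binding protein, had a log2 fold change of −0.07 ± 0.39 (SE, edgeR adjusted p 0.936). Of the 7 paralogs and partners described 6 were tested and 0 were called by edgeR, beside 4.83% of all tested genes. Nanos1 and Elavl4 had an unadjusted edgeR p under 0.05, as had 3561 of the 14766 tested genes in either direction. The median log2 fold change of the 6 was −0.039, in a range from −0.98 to 1.39, against −0.56 for the 7 regulators and 0.01 for all tested genes. Both sets were chosen with earlier results of these libraries known, and the 7 include Nanos2, so these medians are a description.

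Read ratios within a family do not depend on how libraries are scaled. For 100 Tia1 reads there were 738, 270.0 and 213 Tial1 reads in controls 1, 2 and 3, against 153, 153 and 188 in knockouts 1, 2 and 3. Each control ratio was above each knockout ratio, and control 1 stood out. The mean log2 ratio differed by −1.09 between knockout and control, and by −0.55 without control 1. The exact permutation test gave p = 0.1, the smallest that 3 against 3 libraries allow.

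For 100 Nanos3 reads there were 9.52, 5.88 and 5.26 Nanos2 reads in controls 1 to 3 and 0, 0 and 3.16 in knockouts 1 to 3, also without overlap (exact permutation p = 0.1). For Elavl2 and Elavl1 the ratio was 112, 47.6 and 42.4 in controls 1 to 3 and 47.6, 52.6 and 36.3 in knockouts 1 to 3, with overlap (exact permutation p = 0.5). The difference in mean log2 ratio of Elavl2 to Elavl1 was −0.44 with all libraries and 0.00218 without control 1. Tests were made for 4 ratios, of which 3 are given, and none could pass 0.05 in this design.

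**Figure D3:**
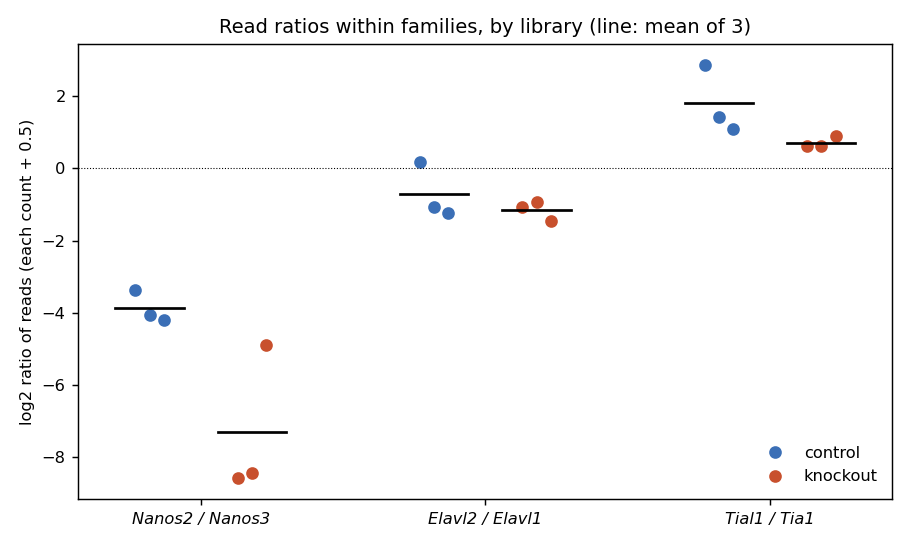
Log2 ratio of reads of the first gene to the second in each library, with 0.5 added to each count, for 3 pairs within a family. Lines are means of 3 libraries. Groups are apart for Nanos2 to Nanos3 and Tial1 to Tia1, and they overlap for Elavl2 to Elavl1. The Nanos2 values of knockout 1 and 2 rest on 0 reads and the 0.5 added.

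Relative to Dazl, whose groups overlapped and which is restricted to germ cells, each of the other 6 genes had lower ratios in all knockouts than in any control, as had 21.9% of all tested genes, against 15.8% in CPM. For 1000 Dazl reads there were 16.9 to 21.9 Tial1 reads in controls and 7.72 to 9.36 in knockouts. Pum2 had 33.2 to 45.2 in controls and 21.9 to 23.8 in knockouts, and Nanos3 9.50 to 10.5 against 5.26 to 6.85. Elavl2 had 14.4 to 35.0 against 10.4 to 11.1, and Dnd1, whose groups overlapped in CPM, 7.38 to 13.4 against 5.04 to 6.48. Nanos2, which passed the filter only through its controls, had 0.552 to 0.966 against 0 to 0.217. Dazl itself had a log2 fold change of 0.18, which lowers every ratio in the knockouts. These ratios share 1 denominator, so they are not independent of each other.

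Levels between genes were compared as CPM per kilobase of annotated exon. In controls Dazl stood at 724 ± 105, Nanos3 at 29.9 ± 2.82, Pum2 at 14.6 ± 1.49 and Dnd1 at 10.6 ± 3.35 (SD, n = 3). Tial1 followed at 7.73 ± 0.551, Elavl2 at 7.10 ± 3.25 and Nanos2 at 1.21 ± 0.356. The neighbours Pum2 and Dnd1, Dnd1 and Tial1, and Tial1 and Elavl2 overlapped in their ranges over libraries. In knockouts the order was the same except that Elavl2 (4.08 ± 0.0795) and Tial1 (3.97 ± 0.221) stood in the opposite order, and these were the only neighbours whose ranges overlapped there. Nanos2 was last in both groups, at 0.154 ± 0.266 CPM per kilobase in knockouts.

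The PUMILIO element was searched for in the 3′ untranslated regions of the 7 genes, because PUM2 is one of them and its protein binds there. The search used TGTANATA on the mRNA strand, in the longest annotated 3′ untranslated region of a coding transcript per gene (GENCODE M21). Elavl2 held 3 elements, Pum2 held 2 and Tial1 held 1, and no match was found for Dazl, Nanos2, Nanos3 or Dnd1. Each site is printed as DNA with 9 bases on each side, 5′ to 3′ on the strand of the gene, with the element in capitals and positions on mm10.
Pum2 site 1, chr12:8750156-8750181, plus strand: ttatagagaTGTATATAgaattatag
Pum2 site 2, chr12:8750409-8750434, plus strand: gtacagaatTGTATATActtataatt
Elavl2 site 1, chr4:91251944-91251969, minus strand: tttgtgtgaTGTAAATAagaccttgt
Elavl2 site 2, chr4:91251736-91251761, minus strand: aattctgtcTGTAGATAgtctagctt
Elavl2 site 3, chr4:91251071-91251096, minus strand: taaaatacaTGTATATAtttaaaaaa
Tial1 site 1, chr7:128441740-128441765, minus strand: gataaacatTGTAAATAttgaataac
The genes with an element are also those with long 3′ untranslated regions, of 2861 bases in Pum2, 2756 in Tial1 and 2477 in Elavl2, against 1854 in Dazl, 947 in Nanos2, 360 in Dnd1 and 172 in Nanos3. Among tested genes with a region within 20% of the same length, at least 1 element was present in 44.0% for Pum2, 43.8% for Tial1 and 40.1% for Elavl2. As many elements as in Elavl2 were found in 3.39% of such genes, and as many as in Pum2 in 13.8%. The AU-rich heptamer TATTTAT, searched on the same strand, occurred 3 times in Elavl2, 2 times in Dazl and 1 time each in Pum2, Tial1 and Dnd1, and none of its matches overlapped a printed element. At least 1 heptamer was present in 45.2% of genes with a region of like length to that of Elavl2 and in 37.2% for Dazl. A match is a stretch of letters and does not show that a protein binds there.

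The machinery that these proteins work with was described from lists of pathway genes. Deadenylases shorten poly(A) tails, and NANOS2 and DND1 act through the CCR4-NOT complex. Of 16 tested deadenylase genes 3 fell, 0 rose and 13 did not pass, and the median log2 fold change was −0.43, beside 2.8% called lower and a median of 0.01 over all tested genes. Cnot11, a CCR4-NOT subunit, fell to 28.5 ± 2.19 CPM, from 56.5 ± 11.8 CPM (SD, 3 libraries each, log2 fold change −0.99 ± 0.19, edgeR adjusted p 0.0244). Pan3, which encodes the RNA-binding subunit of the PAN2-PAN3 deadenylase, fell by 0.91 on the log2 scale (adjusted p 0.0233), and Cnot6l, a catalytic CCR4-NOT subunit, fell by 0.70 (adjusted p 0.0430). With knockout 1 and 2 as 1 library 0 of the 16 were called by edgeR, 2 by DESeq2 and 2 by limma-voom. Of all tested genes 0%, 1.68% and 1.62% were called lower there, so the edgeR count says nothing of these genes. With the length and GC trend removed (2.65% of all genes called lower), Pan3 and Cnot6l were no longer called, while Cnot11 and Tob1 were.

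Of 13 genes of decapping and translational repression 1 fell and 12 did not pass, with a median of −0.30, beside 2.8% of all tested genes called lower. Lsm14a, a component of processing bodies, fell by 0.79 on the log2 scale (edgeR adjusted p 0.0417), and it overlaps genes on the other strand. That call was lost in all 3 tools with the pair as 1 library, and by edgeR once the trend with length and GC content was taken out. The median of the list was −0.14 without that trend and −0.58 with library size scaling, which lowered the median of all genes to −0.26. Eif4enif1, which encodes the eIF4E transporter, had a log2 fold change of −0.50 with an adjusted p of 0.117. None of the 12 genes of poly(A) binding and cytoplasmic polyadenylation was called by edgeR (median −0.20, and −0.11 and −0.47 in those settings). Of them 1 had an unadjusted edgeR p under 0.05, against 12.8% of all tested genes that were lower at that level. It was Tent2, a cytoplasmic poly(A) polymerase gene. Its log2 fold change was −0.43 with an edgeR adjusted p of 0.146, and that of Eif4g1, a scaffold of translation initiation, was −0.42 with one of 0.250. Paip2, which encodes an inhibitor of poly(A)-binding protein, had a value of 0.37 with one of 0.256, and is named after its value was seen.

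Of 27 other RNA-binding protein genes known from germ cells that were tested, 2 fell and 25 did not pass (median −0.41), beside 2.8% of all tested genes called lower. Trim71, which encodes a repressor of mRNAs known from stem cells, fell to 50.2 ± 4.47 CPM, from 111 ± 17.8 CPM (SD, 3 libraries each, log2 fold change −1.14 ± 0.17, edgeR adjusted p 0.0119), and it overlaps a gene on the other strand. Msi1, the Musashi translational regulator gene, fell by 1.46 on the log2 scale (adjusted p 0.0493), from 78 to 92 reads per control library to 28 to 32 per knockout library. Lin28a, a let-7 regulator of undifferentiated spermatogonia, had 102 to 146 reads in the controls and 77 to 123 in the knockouts, without a call (adjusted p 0.800), and is named after its value was seen. With the pair as 1 library edgeR called 0 of these genes, and DESeq2 and limma-voom called 1 each. Of all tested genes 0%, 1.68% and 1.62% were called lower there by the 3 tools. With the length and GC trend removed, Msi1 was not called while Rbm46 was called lower, beside 2.65% of all tested genes called lower.

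Among 10 mRNAs known as targets of DAZL, NANOS2 or DND1, 3 fell and 7 did not pass (median −0.35), beside the 2.8% of all tested genes called lower. Stra8, the meiotic entry gene that NANOS2 represses, had 1057, 1373 and 1318 reads in controls 1, 2 and 3, against 522, 513 and 523 in knockouts 1, 2 and 3, a log2 fold change of −1.22 ± 0.16 (SE, edgeR adjusted p 0.0101). Stra8 is also on the list of differentiating spermatogonia markers, of which 2 of 6 were called lower. Cdkn1b, a cell cycle inhibitor gene and DND1 target, fell by 1.30 on the log2 scale (adjusted p 0.0337), and Sycp1, a synaptonemal complex gene, fell by 0.73 (adjusted p 0.0328). Among those not called, Tex19.1 was higher in each knockout than in each control in CPM, with a log2 fold change of 0.63 (adjusted p 0.118). Sycp3 and Ddx4, targets of DAZL, had log2 fold changes of 0.17 and 0.35 (adjusted p 0.517 and 0.233), and these 3 are named after their values were seen. With the pair as 1 library edgeR called 0 of the 10, DESeq2 3 and limma-voom 1, beside 0%, 1.68% and 1.62% of all tested genes called lower. With library size scaling, where 7.8% of all tested genes were called lower, edgeR called 7 of 16 deadenylase, 1 of 13 repression, 9 of 27 other RNA-binding protein and 5 of 10 target genes lower, and 0 of the 12 of the poly(A) list. The share of the repression list there is near that of all genes. RNA levels say nothing of the translation of these targets.

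**Figure D4:**
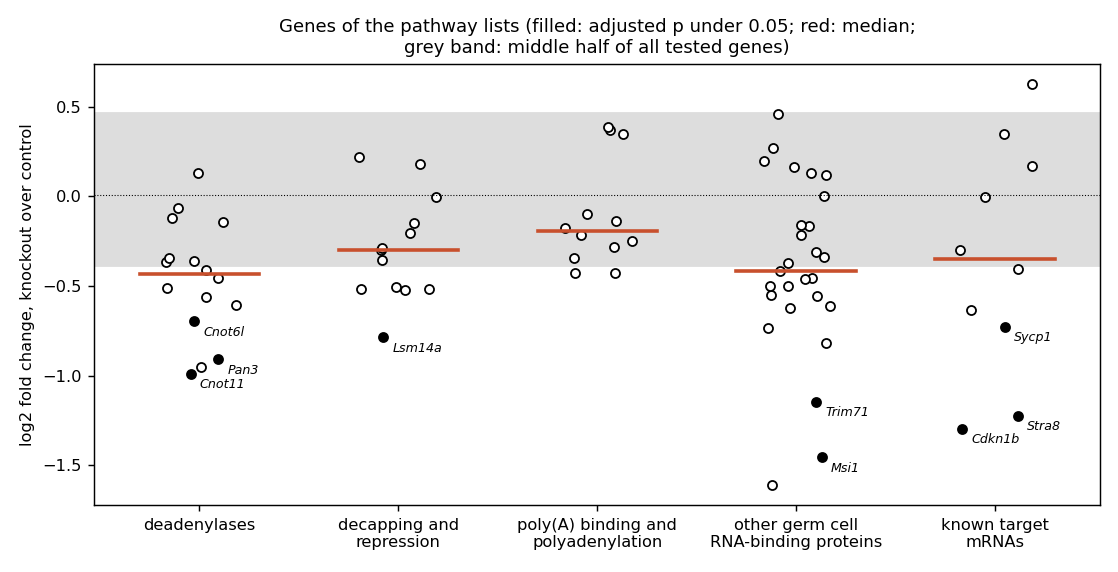
Log2 fold change of knockout over control for the tested genes of 5 pathway lists, with red lines at list medians from −0.43 to −0.20. Filled points are the 9 genes with an adjusted p under 0.05, all of them lower, and the grey band spans the quartiles of all tested genes.

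Genes whose levels followed the same course over the 6 libraries were sought among 7695 named protein-coding genes with a mean of at least 10 CPM, by Pearson's r of log2(CPM + 0.5). For Tial1 the likest were Mcm6, a replicative helicase gene, and Dhx33, both at r above 0.95, as were 3.46% of the genes searched. For Pum2 they were Incenp, a chromosomal passenger gene, and Trim25 (3.73% at that level), and for Elavl2 Eif3a and Dnajc5 (2.68%). Fbxw2 and Slc39a6 followed Nanos3 (0.845%), Arf6 and Zfp91 followed Dnd1 (1.78%), and H2-D1 and Ctsd followed Dazl (0.130%). The 6 points share the difference between groups and the closeness of knockout 1 and 2, so these are descriptions of course and not of shared control.

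**Figure D5:**
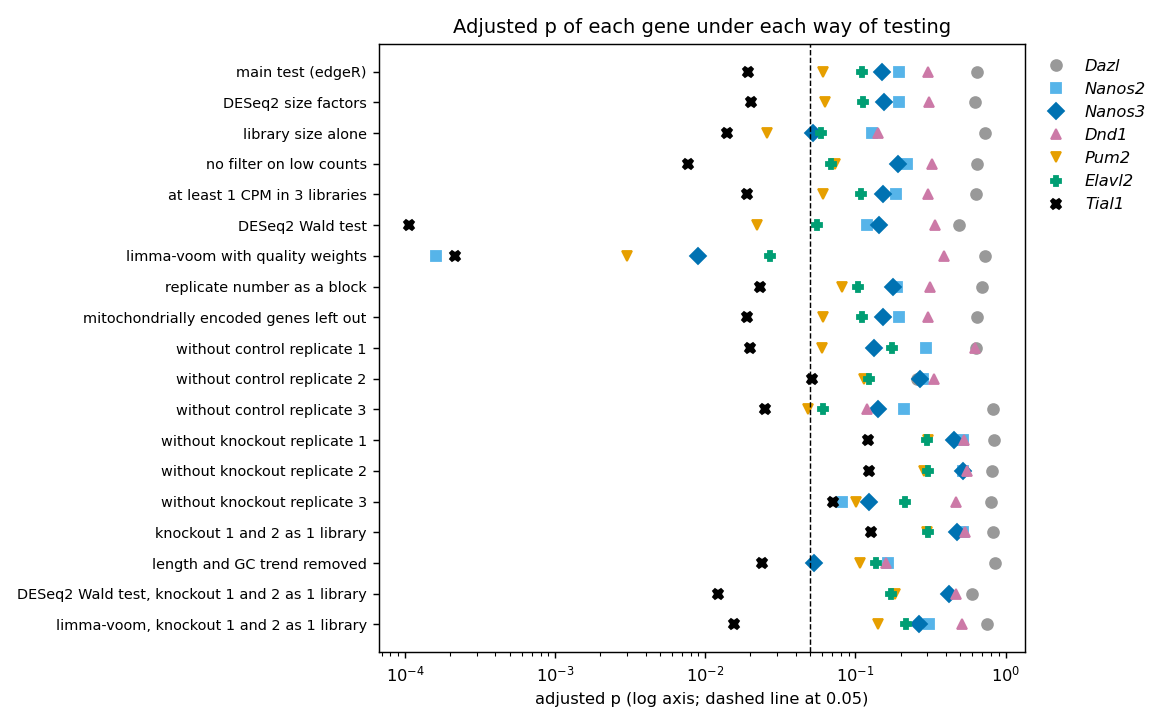
Adjusted p (log axis) of each gene under the main edgeR test and 18 other ways of testing, with a dashed line at 0.05. Tial1 lies left of the line except without control 2, without any 1 of the knockouts, or where knockout 1 and 2 are counted as 1 library by edgeR, and Dazl and Dnd1 lie right of it throughout.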

How the data were processed

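The authors deposited a table of whole-number read counts, with Ensembl genes in rows and 6 libraries in columns, and a sum and a mean signal over them that were not used in any test. Per the submitters' processing notes, reads were handled on mm10, and the notes name edgeR, DESeq2, StringTie 2.1.7, STAR 2.7.5c and Trimmomatic 0.39 without their roles. How reads were counted, with which annotation, strand setting and filter, is not stated in the labels. Symbols, positions and exon lengths came from GENCODE M21 on GRCm38, which matched 22562 of 22579 genes.

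Genes were tested with edgeR 4.0.16 (R 4.3.3), by its robust quasi-likelihood F test with filterByExpr, TMM scaling and genotype as its only term, two-sided, over 14766 genes. SEs were derived from F and the log2 fold change (its size divided by the root of F). CPM use TMM-adjusted library sizes. Alternatives were other scalings and filters, DESeq2 1.42.0, limma-voom (limma 3.58.1, quality weights per library in every such fit), leaving out mitochondrially encoded genes, leaving out each library, a block for the replicate number, knockout 1 and 2 as 1 library (rounded mean), and a lowess trend (span 0.3) with length and GC content removed. DESeq2 and limma-voom on that pair were added after the data were seen. The tests were tried on simulated data. Deviations of libraries with the same number from their group means correlated at 0.000853 to 0.0165, which shows no pairing by number. With means of 3 libraries, and knockout 1 and 2 nearly alike, these values cannot exclude one.

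The genes and lists were chosen with earlier results of these data known. Named were the 7 genes, their paralogs and partners (1 of these, and the read ratio that used it, is not reported here), and from each other list the called genes, or the 2 with the smallest p where fewer were called, besides the 2 likest in course to each gene with a mean of at least 10 CPM. The lists covered deadenylases, decapping and repression, poly(A) binding, other germ cell RNA-binding proteins, known targets and cell type markers. Some further genes of the lists were named after their values were seen.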

Additional observations from a re-analysis of the deposited data

How the results depend on the processing

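Directions held under all 18 alternatives for 6 of the 7 genes, and the log2 fold change of Dazl was −0.074 with library size alone. Called genes numbered 713 in the main test, 1378 with library size scaling, 1641 by DESeq2 and 2882 by limma-voom with quality weights. With knockout 1 and 2 as 1 library they numbered 1 by edgeR and 465 by DESeq2, and 3 to 839 with a library left out. The edgeR call of Tial1 was lost with that pair as 1 library (−0.98). With a library left out its log2 fold change ran from −1.02 to −0.92. Calls were gained by limma-voom for Nanos2 (−5.10), Nanos3 (−0.75), Pum2 (−0.59) and Elavl2 (−0.55), and for Pum2 by DESeq2 (−0.55) and library size scaling (−0.83). Of all tested genes limma-voom called 19.5%, DESeq2 11.1% and library size scaling 9.33%, against 4.83% in the main test. Nanos2 passed the filter only through its controls. Pum2 ran from −0.63 to −0.49 with a library left out. The Elavl2 to Elavl1 ratio ran from −0.70 to 0.00218, turning sign without control 1. With the replicate block Tial1 was still called (−0.96, adjusted p 0.0233) and 683 genes were called in all. Library size scaling made 83.6% of calls lower, against 57.9% with TMM. The causes were not tested. Low counts limit Nanos2, and its ratio to Nanos3 has no value with a pseudocount of 0.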

Other observations

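Messages with a PUMILIO element were described across all tested genes with a known 3′ untranslated region. At least 1 TGTANATA was present in 3581 of 13798 genes. Of these, 4.50% were called lower and 0.838% higher by edgeR, against 2.43% and 2.46% of the 10217 genes without one. The median log2 fold change was −0.13 with an element, −0.19 with 2 or more and 0.04 without. Genes with an element had a median 3′ untranslated region of 2226 bases against 852 without, and with the trend with exon length and GC content removed the medians were −0.06 and 0.01. The part of the length of the untranslated region itself was not tested.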
